A study of Rattus norvegicus with 119 samples.

Results

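The cluster of miR-199a and miR-214 was represented by 3 of the 301 rat microRNAs (miRNAs) in the deposited array table: rno-miR-199a-3p, rno-miR-199a-5p and rno-miR-214, called miR-199a-3p, miR-199a-5p and miR-214 below. They were chosen by name alone, as the entries whose names start with miR-199a together with the entry miR-214, and all 3 were measured on every array. The study profiled bladder urothelium, the epithelial lining of the bladder, from male and female Sprague-Dawley rats dosed by mouth every day with pioglitazone hydrochloride at 16 mg/kg/day, pioglitazone at 63 mg/kg/day, rosiglitazone maleate at 10 mg/kg/day or vehicle (0.5% methylcellulose), for 3, 28 or 90 days. Of 10 males and 10 females dosed in each group, 5 each were profiled, so that each array stands for 1 animal. The lower pioglitazone dose is 16 in the sample labels, which is the value used here, and 13 in the series' design text. The urothelium was scraped off the opened bladder with a scalpel, and its RNA was labelled with Cy3 for 1-colour Agilent miRNA arrays.

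The 4 treatments, 2 sexes and 3 times gave 24 groups and 119 arrays, of which 116 passed quality control in the labels and were used. Groups held 5 arrays, except pioglitazone 16 males at day 28 (4), pioglitazone 16 females at day 28 (3) and vehicle males at day 28 (4). Values are log2 intensities between 2.69 and 16.87, with no detection call, and many miRNAs lie near the lower end. Array medians ran from 3.70 to 5.66, and 23 of the 116 arrays had a median under 4.5. Their number in males at day 28 was 1 of 4 with pioglitazone 16, 2 of 5 with pioglitazone 63, 3 of 5 with rosiglitazone 10 and 3 of 4 with vehicle. Values without these arrays are given below beside the calls that rest on them.

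miR-199a and miR-214 are vertebrate miRNAs that are transcribed together from the opposite strand of an intron of a dynamin gene, and that mark mesenchymal cells such as fibroblasts and smooth muscle cells rather than epithelium. The miR-199a hairpin yields a 5p and a 3p strand, which carry different seeds and so recognise different target sets. Pioglitazone and rosiglitazone are thiazolidinediones, antidiabetic agonists of the nuclear receptor PPAR gamma.

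The mature sequences and positions below, from RefSeq (GRCr8), show the seed of each member and where the Mir199a2 and Mir214 hairpins lie. Whether the array rows also take in copies from other loci was not tested. Capitals mark the seed, bases 2 to 8 counted from the 5′ end.
miR-199a-3p: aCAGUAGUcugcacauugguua
miR-199a-5p: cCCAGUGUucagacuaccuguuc
miR-214: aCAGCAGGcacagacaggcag
The 3 seeds differ from each other, and each was held by 1 of the 724 mature rat miRNAs in the RefSeq table. In GRCr8, miR-199a-3p lies at chr13:77116294-77116315 and miR-199a-5p at chr13:77116255-77116277, both on the plus strand in the Mir199a2 hairpin (chr13:77116225-77116334). miR-214 lies at chr13:77121713-77121733, also on the plus strand, and its hairpin is printed below with the mature miR-214 in capitals to show that it occupies the 3′ arm.
Mir214 hairpin: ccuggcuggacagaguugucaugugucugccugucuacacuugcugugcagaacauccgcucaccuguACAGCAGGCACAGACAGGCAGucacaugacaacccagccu
The Mir214 hairpin spans chr13:77121645-77121752, so that 5310 bases with 0 annotated miRNA genes separate it from Mir199a2. Both hairpins lie within the span of Dnm3, the dynamin 3 gene (chr13:76892381-77371346), and Mir3120 overlaps Mir214.

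The 3 members were among the more variable miRNAs from animal to animal. The standard deviation within groups, as moderated by limma, was 1.98 log2 units for miR-199a-3p, 1.42 for miR-199a-5p and 1.70 for miR-214. Its median over all 301 miRNAs was 0.853. These values are at the 97th, 86.4th and 93rd percentiles of all miRNAs. Over the 116 arrays, miR-199a-3p had a lowest, median and highest level of 3.35, 9.24 and 12.47, miR-199a-5p of 3.53, 7.12 and 10.14, and miR-214 of 3.00, 6.74 and 10.07. A single group could hold arrays at both ends of this range. In rosiglitazone 10 males at day 28, 2 arrays had miR-199a-3p at 9.33 and 9.90 and 3 had it at 4.15, 3.71 and 3.35.

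The group means of miR-199a-3p ran from 5.73 ± 1.98 (SD, n = 4) in vehicle males at day 28 to 11.20 ± 1.14 (n = 5) in vehicle males at day 3. The highest mean of miR-214 was also that of vehicle males at day 3, 8.23 ± 1.19 (n = 5), and its lowest was again that of vehicle males at day 28, 3.44 ± 0.62 (n = 4). miR-199a-5p followed another order, with its highest mean in pioglitazone 63 females at day 3, 8.73 ± 1.11 (n = 5), and its lowest in rosiglitazone 10 females at day 28, 5.31 ± 1.44 (n = 5). When the 24 groups were ranked by mean, each of the 23 steps between neighbours was smaller than the larger of the neighbours' standard deviations, for each member.

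**Figure D1:**
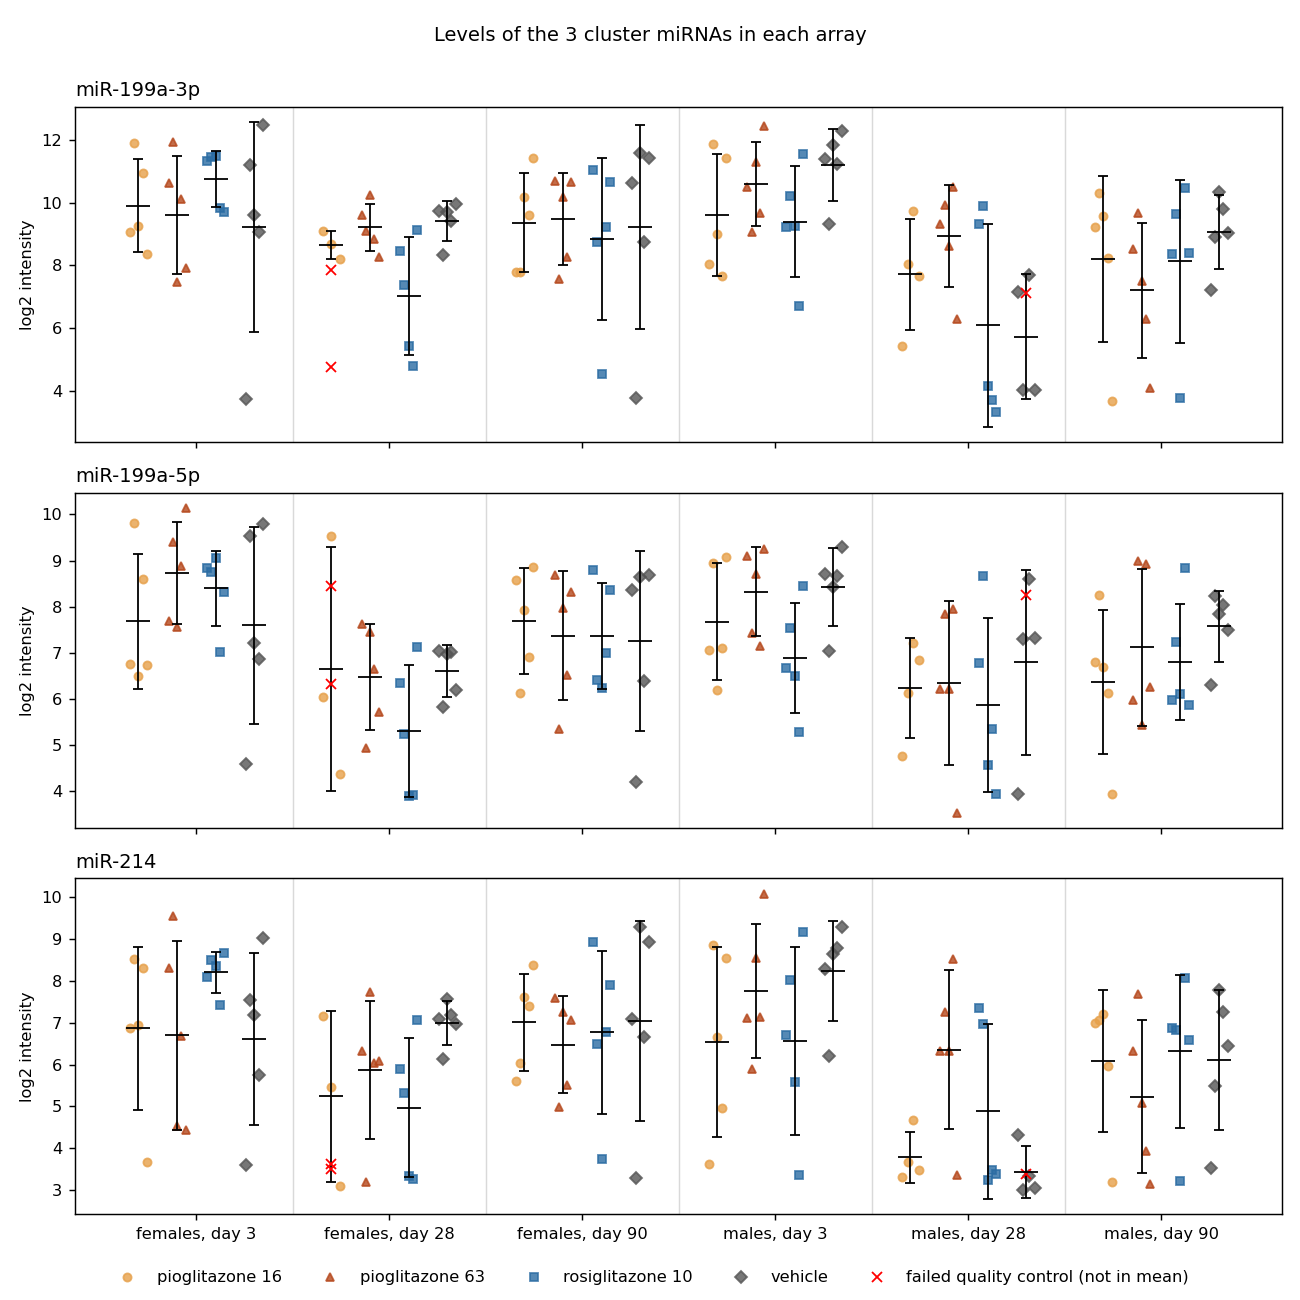
Log2 intensity of miR-199a-3p, miR-199a-5p and miR-214 in each array (1 point per rat) by sex, day and treatment, with the group mean and SD as bars and the 3 arrays that failed quality control as crosses outside the mean. miR-214 in males at day 28 ran from 3.36 to 8.51 with pioglitazone 63 and from 3.00 to 4.33 in the 4 vehicle arrays. With rosiglitazone 10 it ran from 3.24 to 7.35.

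The first question of the design is whether either drug alters the levels at a given sex and time. In 18 comparisons, each of treated rats with vehicle rats of equal sex and day, miR-199a-3p was called in 1, miR-214 in 1 and miR-199a-5p in 0, at an adjusted p under 0.05 (limma, Benjamini-Hochberg over the 301 miRNAs). Both calls were increases in the same comparison, pioglitazone 63 males at day 28. In that comparison 37.2% of all miRNAs were called and 21.6% were called higher, so 2 of the 3 members is a share read against a large background. miR-199a-5p had an unadjusted p under 0.05 in 0 of its 18 comparisons, with differences from -1.53 to 1.14. In the other 17 comparisons the share of all miRNAs called was 12.6% and 24.6% in males at day 28 (pioglitazone 16 and rosiglitazone 10), 3.65% in males at day 3 with rosiglitazone 10, and 0 or 0.332% elsewhere, and differences ran from -2.39 to 1.98 for miR-199a-3p and from -2.01 to 1.59 for miR-214.

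In males at day 28, miR-199a-3p was 9.33, 9.91, 8.63, 10.51 and 6.30 with pioglitazone 63, against 7.16, 4.02, 7.71 and 4.04 with vehicle. Of the 5 treated arrays, 4 lay above every vehicle array, and the groups overlapped through the array at 6.30. The difference was 3.20 log2 units (SE 1.33, 95% interval 0.57 to 5.84, adjusted p = 0.0485), or 2.83 relative to the median shift of all miRNAs in this comparison (0.37). miR-214 was 6.32, 7.24, 6.32, 8.51 and 3.36 with pioglitazone 63, against 4.33, 3.00, 3.35 and 3.06 with vehicle. Again 4 of the 5 treated arrays exceeded every vehicle array and 1 lay among them. Such overlaps were counted for the members only, not over all miRNAs. The difference was 2.92 (SE 1.14, 95% interval 0.65 to 5.18, adjusted p = 0.0355), or 2.54 relative to the median shift.

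The other strand of the miR-199a hairpin gave no call in the same rats. miR-199a-5p was 6.22, 7.84, 6.21, 7.94 and 3.53 with pioglitazone 63, against 3.94, 7.31, 8.60 and 7.32 with vehicle, and 0 of the 5 treated arrays lay above every vehicle array. The difference was -0.44 (SE 0.95, 95% interval -2.33 to 1.44, adjusted p = 0.748).

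Both calls depended on single arrays, and they involved arrays of low median. Of the vehicle arrays, 3 of 4 had a median under 4.5, and in the pioglitazone 63 group the array with miR-214 at 3.36 (median 3.91) and the array with miR-214 at 8.51 (median 4.33) did too. Fitted with a covariate for the array median, the differences were 1.87 for miR-199a-3p (adjusted p = 0.129) and 1.75 for miR-214 (adjusted p = 0.0869). Without the arrays of median under 4.5, 1 vehicle male of day 28 is left, its spread is taken from the other groups, and a call lost there is not read as a result. The differences were then 2.13 for miR-199a-3p and 2.29 for miR-214, and that of miR-199a-5p turned to 2.82. The part of array quality in the result was not tested beyond these values. When 1 array was left out, the call of miR-199a-3p ended without vehicle replicate 3 (2.63) or 5 (2.64) and without pioglitazone 63 replicate 1 (3.11), 2 (2.96), 3 (3.28) or 4 (2.81). The call of miR-214 ended without vehicle replicate 3 (2.77), 4 (2.89) or 5 (2.79) and without pioglitazone 63 replicate 1 (2.93), 2 (2.69), 3 (2.92) or 4 (2.38).

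**Figure D2:**
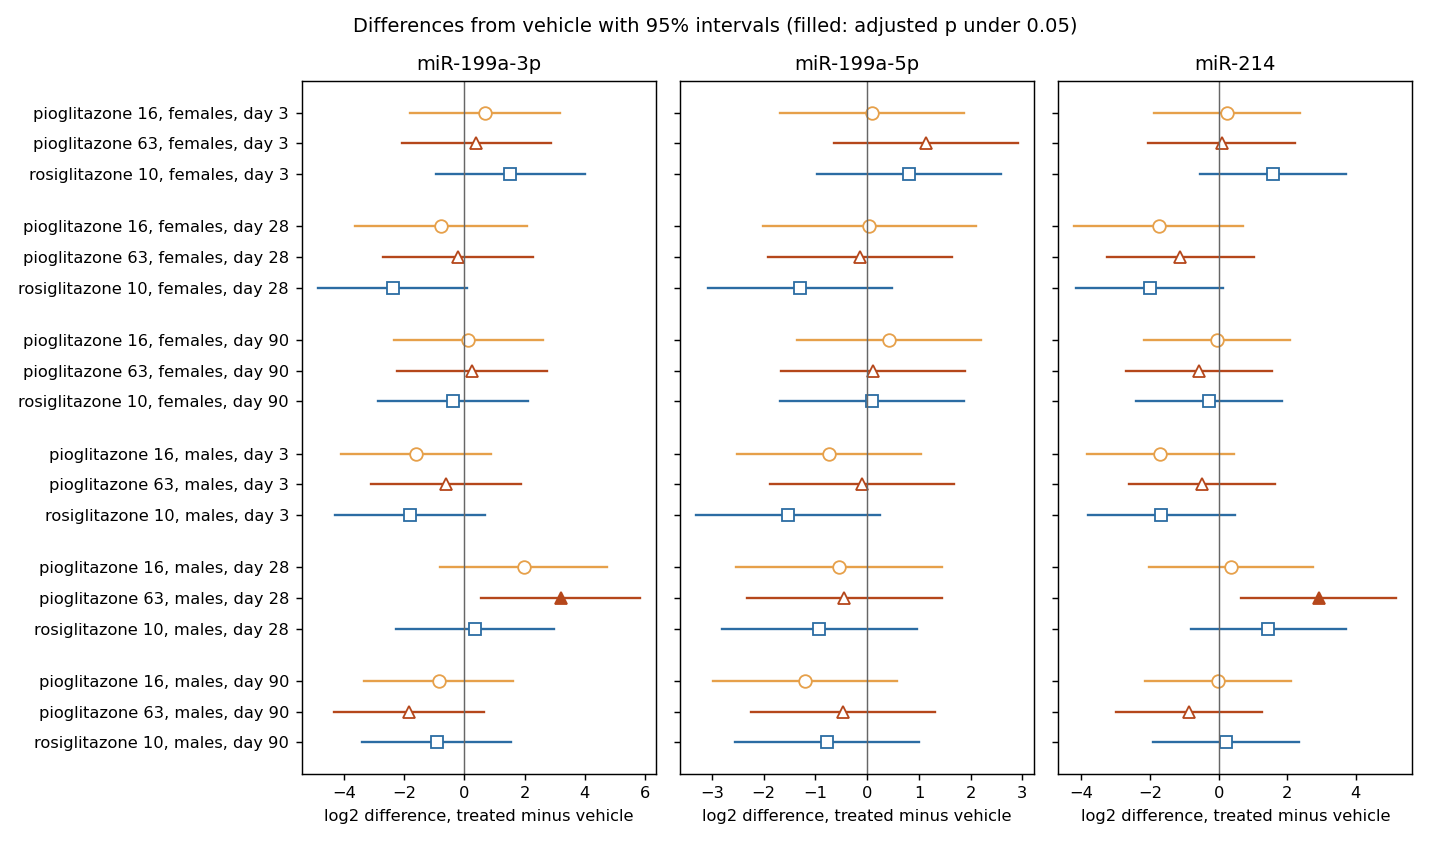
Log2 difference from the vehicle group of the same sex and day for each member (treated minus vehicle, limma), with 95% intervals as lines and filled symbols where the adjusted p is under 0.05. The 2 filled symbols, 3.20 for miR-199a-3p and 2.92 for miR-214, are both pioglitazone 63 males at day 28.

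With the lower dose and with the other drug, 0 of 3 members were called against the same 4 vehicle arrays in males at day 28. With pioglitazone 16, where 12.6% of all miRNAs were called, miR-199a-3p was 5.42, 8.04, 9.74 and 7.66 and differed from vehicle by 1.98 (SE 1.40, 95% interval -0.80 to 4.76, adjusted p = 0.468). miR-214 stayed low with pioglitazone 16, at 3.33, 3.67, 4.67 and 3.49, a difference of 0.35 (SE 1.20, 95% interval -2.03 to 2.74) whose sign turned when each array was centred on its median. With rosiglitazone 10, where 24.6% of all miRNAs were called, miR-214 was 7.35, 6.97, 3.24, 3.48 and 3.39, a difference of 1.45 (SE 1.14, 95% interval -0.82 to 3.71, adjusted p = 0.411). It was 2.82 without the arrays of low median, against the 1 vehicle array left. The split within that group followed the array median, which was 5.47 and 5.17 in the 2 high arrays and 4.22, 3.76 and 3.77 in the 3 low ones. Because all 3 treated groups share 1 vehicle group, their differences are not independent. The drugs were given at different doses, so their effects are set side by side and not compared.

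Averaged over both sexes and all 3 times, 0 of the 3 members were called for any treatment, and 0 had an unadjusted p under 0.05. The share of all miRNAs called in these means was 0% for pioglitazone 16, 10.6% for pioglitazone 63 and 11.3% for rosiglitazone 10. For pioglitazone 16 the mean differences were -0.07 for miR-199a-3p (95% interval -1.14 to 0.99), -0.32 for miR-199a-5p (-1.09 to 0.44) and -0.48 for miR-214 (-1.40 to 0.43). For pioglitazone 63 they were 0.20 (-0.83 to 1.22), 0.02 (-0.71 to 0.75) and -0.005 (-0.89 to 0.88), and for rosiglitazone 10 they were -0.60 (-1.63 to 0.42), -0.60 (-1.34 to 0.13) and -0.12 (-1.0 to 0.76), in the same order of members. These intervals leave room for changes of more than 1 log2 unit for each member with at least 1 treatment. Between the pioglitazone doses, 63 minus 16, the differences were 0.27, 0.34 and 0.48 (adjusted p = 0.956 for each), and 0% of all miRNAs were called.

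In females at day 28 no member was called with any treatment, and the lowest group mean of each member was that of rosiglitazone 10. miR-199a-3p was 8.45, 7.37, 5.44, 4.79 and 9.12 with rosiglitazone 10, against 9.72, 8.34, 9.70, 9.40 and 9.96 with vehicle. All 5 rosiglitazone 10 arrays were under the vehicle mean and 3 below every vehicle array. The difference of -2.39 (SE 1.25, adjusted p = 0.416) did not pass the threshold, in a comparison where 0% of all miRNAs were called. miR-214 was 5.89, 5.31, 3.35, 3.26 and 7.06 with rosiglitazone 10, against 7.08, 6.13, 7.57, 7.19 and 6.97 with vehicle, a difference of -2.01 (SE 1.08, adjusted p = 0.416). The 2 lowest rosiglitazone 10 arrays for both members had medians of 4.13 and 3.87. The differences were -0.98 for miR-199a-3p and -0.91 for miR-214 without the arrays of low median.

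The effect of pioglitazone 63 on miR-214 at day 28 differed between the sexes by 4.03 log2 units, male minus female (SE 1.57, 95% interval 0.92 to 7.14, adjusted p = 0.0452), in a contrast where 26.6% of all miRNAs were called. In females, miR-214 was 6.32, 3.21, 7.72, 6.04 and 6.08 with pioglitazone 63, against the vehicle values above, and 4 of the 5 were under the vehicle mean, where 4 of 5 were over it in males. For miR-199a-3p the difference between the sexes was 3.42 (SE 1.82, adjusted p = 0.152), and for miR-199a-5p it was -0.31 (SE 1.31, adjusted p = 0.893). With pioglitazone 63 miR-214 averaged 6.35 in males and 5.87 in females, and with vehicle it averaged 3.44 and 6.99. The vehicle groups thus lay farther apart than the treated groups, and 3 of the 4 vehicle male arrays had a median under 4.5. The miR-214 call was kept in 8 of the 24 fits that left out arrays, over which it ran from 3.35 to 4.78. It held with 1 array left out only without vehicle female replicate 2, vehicle male replicate 1, pioglitazone 63 female replicate 1, 3 or 5, or pioglitazone 63 male replicate 5. The call ended with the array median as a covariate (2.63, adjusted p = 0.071) and with the replicate number as a block (3.99, adjusted p = 0.0537). When the arrays of low median were left out, the difference was 2.75 and rested on the 1 vehicle male left at day 28. In the other 8 contrasts between the sexes 0 of 3 members were called, with 22.6% (rosiglitazone 10, day 28), 8.64% (pioglitazone 16, day 28), 4.98% (rosiglitazone 10, day 3) and otherwise 0% of all miRNAs called.

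The vehicle rats alone showed where the male day-28 comparisons start from. In vehicle males, miR-199a-3p was 11.38, 9.31, 11.82, 11.22 and 12.28 at day 3, 7.16, 4.02, 7.71 and 4.04 at day 28, and 7.22, 8.90, 10.33, 9.79 and 9.04 at day 90. The values at day 28 overlapped those at day 90 in 1 array of that day, at 7.22, and lay below all those at day 3. Day 28 differed from the mean of days 3 and 90 by -4.40 (SE 1.17, adjusted p = 0.00116), where 51.8% of all miRNAs were called and 35.9% were called lower. miR-214 was 8.27, 6.20, 8.63, 8.78 and 9.28 at day 3, 4.33, 3.00, 3.35 and 3.06 at day 28, and 3.54, 5.49, 7.77, 7.26 and 6.45 at day 90, a difference at day 28 of -3.73 (SE 1.01, adjusted p = 0.00128). Relative to the median shift of all miRNAs (-0.66), these differences were -3.73 for miR-199a-3p and -3.07 for miR-214. miR-199a-5p differed by -1.21 (SE 0.84, adjusted p = 0.216).

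Both of these calls were kept in each of the 19 fits that left out an array or a replicate number, with differences from -5.08 to -3.59 for miR-199a-3p and from -4.34 to -3.33 for miR-214. Neither was kept with the array median as a covariate, at -1.78 (adjusted p = 0.112) and -1.44 (adjusted p = 0.126). Without the arrays of low median the differences were -2.97 and -2.83, and rested on the 1 vehicle male array left at day 28. All 10 vehicle male arrays of days 3 and 90 had medians above 5, while the 4 at day 28 had medians of 4.82, 4.07, 4.26 and 4.00, so that day and array median cannot be told apart in this group. In bulk tissue, fewer cells of a type and less RNA per cell cannot be told apart either.

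Vehicle males at day 28 differed from vehicle females of that day by -3.69 for miR-199a-3p (SE 1.33, adjusted p = 0.0158) and -3.55 for miR-214 (SE 1.14, adjusted p = 0.00703), both lower in males. All 4 male arrays lay below all 5 female arrays for both members, in a comparison where 48.8% of all miRNAs were called in either direction. The share of all miRNAs with arrays so separated was not counted. miR-199a-5p averaged 6.79 in males and 6.61 in females (difference 0.18, SE 0.95, adjusted p = 0.893). The call of miR-199a-3p ended without vehicle male replicate 3 (-3.12) or 5 (-3.13). Both calls ended with the array median as a covariate, at -1.51 for miR-199a-3p (adjusted p = 0.234) and -1.64 for miR-214 (adjusted p = 0.115). Without the arrays of low median the differences were -2.13 and -2.66, again with 1 male array left. At days 3 and 90, 0 of 3 members were called between the sexes, where 0% and 0.332% of all miRNAs were called.

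The same contrast of days was taken in the other groups. In pioglitazone 63 males, day 28 differed from the mean of days 3 and 90 by 0.04 for miR-199a-3p (SE 1.08) and by -0.14 for miR-214 (SE 0.93). In vehicle females miR-199a-3p averaged 9.22, 9.42 and 9.23 at days 3, 28 and 90, and miR-214 averaged 6.61, 6.99 and 7.05. In both of these groups 0% of all miRNAs and 0 of 3 members were called. The sign of these small pioglitazone 63 differences changed with the scaling of the arrays. In rosiglitazone 10 females the 3 members differed at day 28 by -2.76 for miR-199a-3p (adjusted p = 0.0944), -2.57 for miR-199a-5p (SE 0.78, adjusted p = 0.0244) and -2.51 for miR-214 (adjusted p = 0.0873), where 6.64% of all miRNAs were called. That of miR-199a-5p was called lower, and the call ended without rosiglitazone 10 female replicate 3 (-2.22) or 4 (-2.23) of day 28, and without the arrays of low median (-1.78). In pioglitazone 16 males, where 24.6% of all miRNAs were called, miR-214 differed by -2.52 (SE 1.01, adjusted p = 0.0548), which passed with each array centred on its median (-2.23, adjusted p = 0.0384), with the covariate for the array median (-1.93, adjusted p = 0.0281) and without the arrays of low median (-3.09, adjusted p = 0.00524). On the deposited scale with all 116 arrays 0 of 3 members were called there, in pioglitazone 16 females, in pioglitazone 63 females or in rosiglitazone 10 males, where 0.332%, 0% and 0.332% of all miRNAs were called in these last 3 groups. In the 8 comparisons of day 90 with day 3, 0 calls were made for any member, and the share of all miRNAs called was 8.31% in vehicle males, 0.997% in pioglitazone 63 males, 3.32% in pioglitazone 63 females, 2.99% in rosiglitazone 10 females, 0.332% in rosiglitazone 10 males and 0% in the other 3. The largest of these differences were in pioglitazone 63 males, at -3.38 for miR-199a-3p (SE 1.25, unadjusted p = 0.00828, adjusted p = 0.247) and -2.52 for miR-214 (SE 1.08, unadjusted p = 0.0214, adjusted p = 0.318).

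The distance between the strands of the miR-199a hairpin varied from array to array. Because probes differ in their response, the 3p minus 5p difference within an array has no meaning as a level, and only its change between arrays is read. This measure was chosen after the values were seen, and its 6 comparisons at day 28 were tested by two-sided exact permutation over arrays. In males it averaged 1.47 ± 0.89 (SD, n = 4) with pioglitazone 16, 2.59 ± 0.39 (n = 5) with pioglitazone 63, 0.23 ± 1.66 (n = 5) with rosiglitazone 10 and -1.06 ± 3.07 (n = 4) with vehicle. It was -3.28, -0.89 and -3.28 in vehicle replicates 3, 4 and 5, and 3.22 in vehicle replicate 1. In vehicle replicates 3 and 5 miR-199a-3p itself was 4.02 and 4.04 at array medians of 4.07 and 4.00. The part of low signal in these differences was not tested. The male comparisons are not read as changes (adjusted p between 0.143 and 0.679 over the 6 comparisons, exact permutation). The difference of pioglitazone 63 from vehicle was 3.65 with all arrays and -0.69 without those of low median, which leaves 3 treated arrays and 1 vehicle array. In females it averaged 1.73 ± 0.53 with rosiglitazone 10 and 2.81 ± 0.55 with vehicle, and all 5 rosiglitazone 10 arrays lay below all 5 vehicle arrays (difference -1.09, exact permutation p = 0.00794, the smallest that 5 against 5 arrays can give, adjusted p = 0.0476). The 2 rosiglitazone 10 arrays with the lowest differences, 1.55 and 0.87, had miR-199a-5p at 3.90 and 3.92 and array medians of 4.13 and 3.87. Without the arrays of low median the difference was -0.50 between 3 rosiglitazone 10 and 4 vehicle arrays (exact permutation p = 0.0286, the smallest they can give, adjusted p = 0.0857 over the 3 comparisons left).

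**Figure D3:**
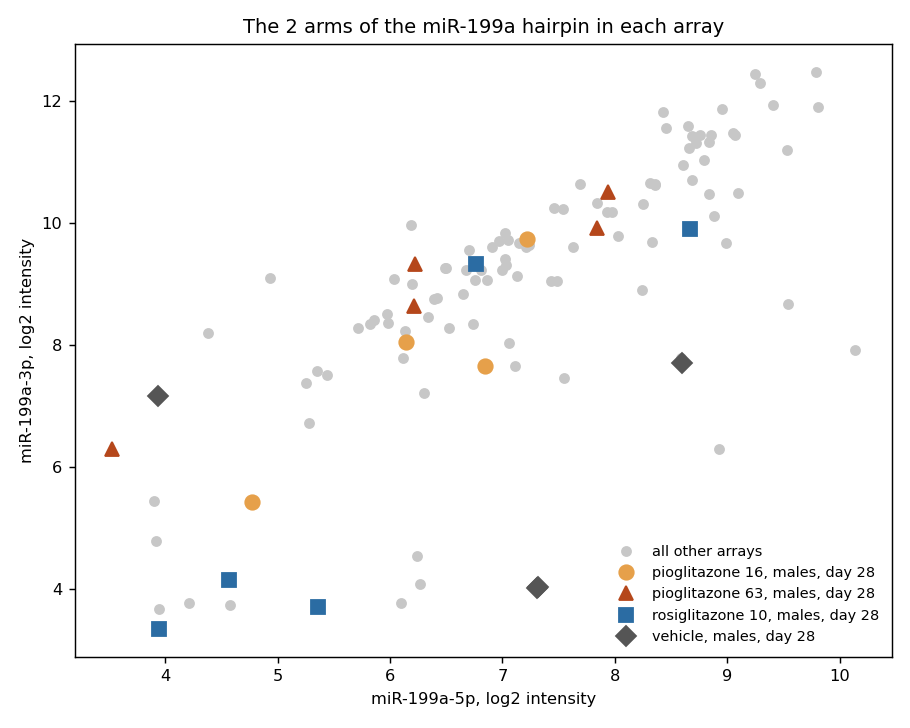
Log2 intensity of miR-199a-3p against miR-199a-5p in each of the 116 arrays, with males at day 28 in colour by treatment and all other arrays in grey. Most arrays follow 1 line. Of the 4 vehicle males of day 28, 3 lie to its right, with miR-199a-5p between 7.31 and 8.60 at miR-199a-3p between 4.02 and 7.71. Arrays of other groups lie there too, such as pioglitazone 63 males of day 90, replicate 4 (miR-199a-5p 8.93, miR-199a-3p 6.30). Another is rosiglitazone 10 males of day 90, replicate 3 (miR-199a-5p 6.10, miR-199a-3p 3.78).

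Across arrays the 3 members moved together. Over the 116 arrays, deviations from the group means of miR-199a-3p and miR-214, which come from separate hairpins, correlated with r = 0.892 (Spearman's rho 0.904; r = 0.886 without the 2 farthest arrays). The 2 strands of the miR-199a hairpin correlated with r = 0.727 (rho 0.734; 0.691 without the 2 farthest arrays), and miR-199a-5p and miR-214 with r = 0.678 (rho 0.678; 0.646). The permutation p was 1e-05 for each pair, the smallest that 100000 permutations can give (adjusted p = 1.2e-05 over 6 relations). The other 3 relations were those with the array median, for which r was 0.704 for miR-199a-3p, 0.407 for miR-199a-5p and 0.716 for miR-214 (rho 0.564, 0.275 and 0.60; 0.660, 0.336 and 0.701 without the 2 farthest arrays; adjusted p = 1.2e-05, 0.0003 and 1.2e-05 for r).

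The relation among the members was as close on arrays of high median. Among the 86 arrays with a median of at least 5, r was 0.909 for miR-199a-3p with miR-214, 0.845 for the 2 strands of miR-199a and 0.689 for miR-199a-5p with miR-214. With the array median it was then 0.002, -0.226 and 0.100 for miR-199a-3p, miR-199a-5p and miR-214 (permutation p = 0.99, 0.078 and 0.43). These arrays were selected by the median itself, which narrows its range and lowers such an r. The fall is therefore not read as a result. Among the 19 arrays with a median under 5 that shared a group with another such array, miR-199a-3p and miR-214 correlated with r = 0.856 (permutation p = 0.019). The other pairs there gave r = 0.638 (p = 0.2) and 0.622 (p = 0.3), and the array median gave 0.742, 0.105 and 0.634 (p = 0.05, 0.83 and 0.054). miR-214 was under 5 in 21 of the 23 arrays with a median under 4.5, and in 10 of the other 93 arrays. miR-199a-3p was under 5 in 12 and 0 of these arrays, and miR-199a-5p in 11 and 1.

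**Figure D4:**
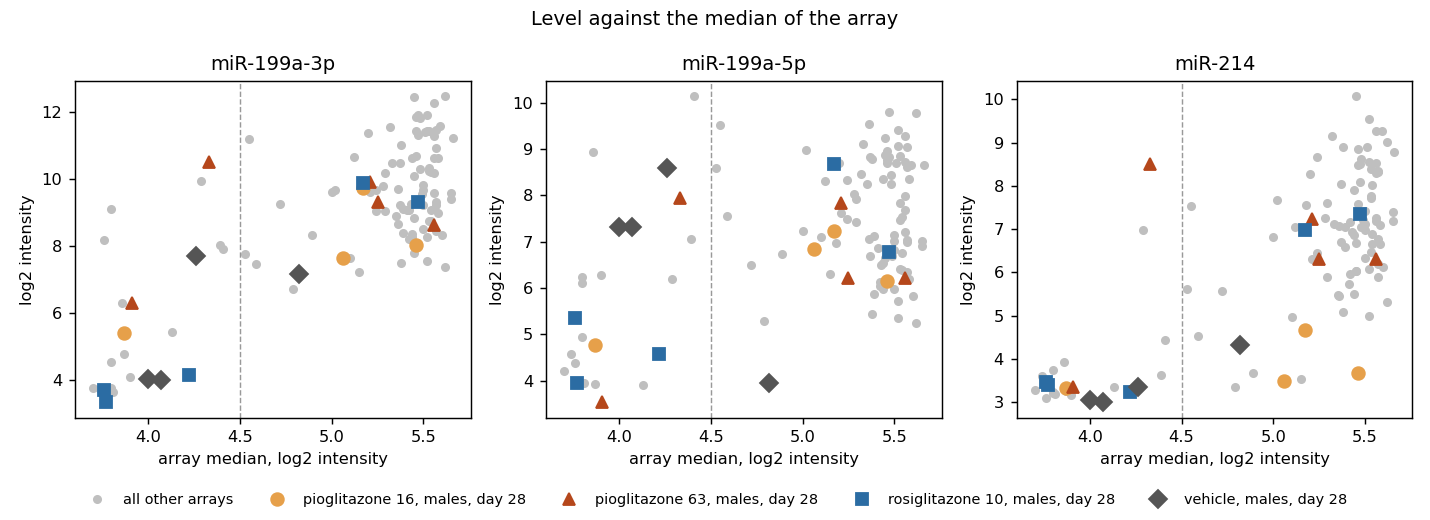
Log2 intensity of each member against the median log2 intensity of the array for the 116 arrays, with males at day 28 in colour and the dashed line at a median of 4.5. To the left of the line 21 of 23 arrays have miR-214 under 5, while to the right levels spread widely at nearly the same median.

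The label of the cluster as mesenchymal was set against miRNAs of other cell types, by the same correlation of deviations within groups over the 116 arrays. These values describe arrays that share RNA quality and array median, and no test is attached to them. Of the 8 measured miRNAs of the smooth muscle and mesenchymal list (11 were listed), 8 of 8 correlated positively with each member. The background was positive too. Over the 298 other miRNAs the median r was 0.202 for miR-199a-3p, 0.132 for miR-199a-5p and 0.204 for miR-214. miR-143 and miR-145, the paired miRNAs of smooth muscle, had r of 0.746 and 0.513 with miR-199a-3p, 0.790 and 0.782 with miR-199a-5p, and 0.701 and 0.491 with miR-214. miR-133b, a muscle miRNA, had r of 0.737, 0.840 and 0.743 with miR-199a-3p, miR-199a-5p and miR-214. On the 86 arrays with a median of at least 5 the count was 7 of 8, the exception being miR-499 (-0.31, -0.43 and -0.27), a miRNA of a myosin gene of slow and cardiac muscle.

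A positive correlation was not particular to that list. Over the 116 arrays the 2 red cell and the 2 endothelial miRNAs were also positive with every member, as were 3 of the 4 leukocyte miRNAs with miR-199a-3p and miR-214. miR-150, a lymphocyte miRNA, had r of 0.813 with miR-199a-3p and 0.855 with miR-214, and miR-451, of red cells, had 0.701 and 0.774, all above the values of miR-145. On the 86 arrays with a median of at least 5, miR-150 stood at 0.691 and 0.717 and miR-451 at 0.346 and 0.525. There miR-145 stood at 0.730 and 0.584 and miR-143 at 0.852 and 0.741. The order thus changed, and only miR-150 with miR-214 stayed above miR-145.

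The epithelial list, the miR-200 family with miR-203, miR-205 and the miR-183 cluster, ran the other way. Of its 12 measured miRNAs (14 were listed), 7 correlated negatively with miR-199a-3p, 12 with miR-199a-5p and 7 with miR-214. On the 86 arrays with a median of at least 5, 12 of 12 were negative for every member, and the median r over the list was -0.67 for miR-199a-3p, -0.73 for miR-199a-5p and -0.62 for miR-214. miR-141, a miR-200 family member of epithelial cells, had the lowest r of all 298 other miRNAs with each of the 3 members: -0.754, -0.612 and -0.752. On the 86 arrays these were -0.788, -0.661 and -0.751. The share of all other miRNAs with a positive or negative r was not counted, so the counts by sign lack that background.

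**Figure D5:**
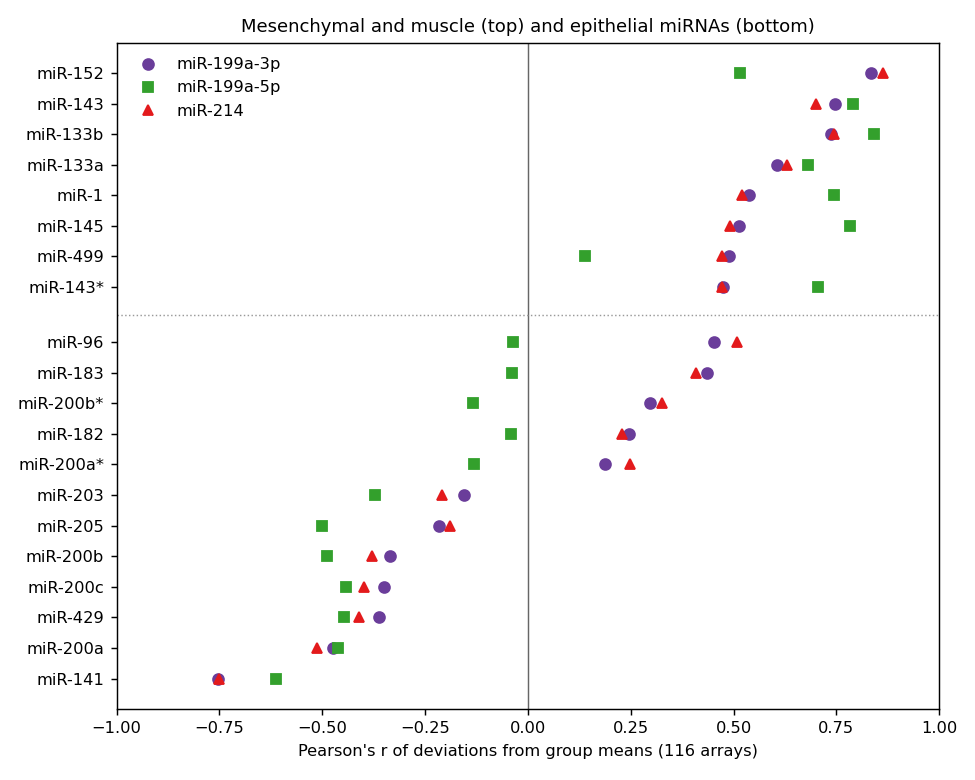
Pearson's r of deviations from group means over 116 arrays between each member and the miRNAs of the smooth muscle and mesenchymal list (above the dotted line) and the epithelial list (below). All 8 upper miRNAs are to the right of 0, while miR-96 and miR-183 are on either side of 0, at 0.45 and 0.44 with miR-199a-3p and -0.04 and -0.04 with miR-199a-5p.

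The miRNAs most like each member in pattern were taken as the 5 with the highest r over the 116 arrays. miR-199a-3p and miR-214 shared 4 of them: miR-195 (r = 0.922 and 0.925), miR-146a (0.839 and 0.835), miR-152 (0.833 and 0.862) and miR-150 (0.813 and 0.855). The fifth was miR-497 (0.813) for miR-199a-3p and miR-455* (0.835) for miR-214. miR-199a-5p had another set, made of miR-133b (0.840), miR-100 (0.837), miR-497 (0.791), miR-143 (0.790) and miR-145 (0.782). The median r over the 298 other miRNAs was 0.202 for miR-199a-3p, 0.132 for miR-199a-5p and 0.204 for miR-214. At the low end, miR-141 was followed by miR-2985 (-0.675 and -0.707) and miR-3085 (-0.549 and -0.640) for miR-199a-3p and miR-214, and by miR-205 (-0.502) and miR-200b (-0.488) for miR-199a-5p. On the 86 arrays with a median of at least 5, miR-195 stayed at 0.933 and 0.875 while miR-146a was at 0.599 and 0.666 and miR-2985 at -0.27 and -0.34.

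The lists were also counted in pioglitazone 63 males at day 28, the comparison of the 2 calls. Beside the 21.6% of all miRNAs called higher there, 2 of 8 of the smooth muscle and mesenchymal list were, miR-152 (2.47, SE 0.86, adjusted p = 0.0183) and miR-499 (1.36, SE 0.52, adjusted p = 0.033), and 0 lower, with a list median of 1.80 against 0.37 over all miRNAs. The mean level of this list was 4.49 to 8.96 with pioglitazone 63 and 3.49 to 7.04 with vehicle. miR-143 (3.35, SE 1.69, adjusted p = 0.107) and miR-145 (1.89, SE 1.82, adjusted p = 0.445) did not pass. Of the epithelial list 2 of 12 were called higher, miR-96 (4.43, adjusted p = 0.0143) and miR-183 (3.77, adjusted p = 0.0117), which come from 1 cluster, and 0 lower, with a median of 0.59; its mean level was 9.20 to 10.76 with pioglitazone 63 and 8.64 to 10.30 with vehicle.

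The blood and vessel lists held further calls in this comparison, where 21.6% of all miRNAs were called higher. Their medians were 2.74 (red cell), 2.33 (endothelial) and 1.52 (leukocyte), against 0.37 over all miRNAs. The red cell miRNAs miR-451 (3.62, adjusted p = 0.0283) and miR-144 (1.85, adjusted p = 0.0485) were 2 of 2 called higher, with a mean level of 6.31 to 9.95 against 3.54 to 6.22 with vehicle. Of the endothelial pair 1 of 2 was called higher, miR-126 (3.90), and the mean level was 6.19 to 8.14 against 3.84 to 6.59 with vehicle. Of the leukocyte list 2 of 4 were called higher, miR-223 (1.80, adjusted p = 0.0219) and miR-142-3p (1.57, adjusted p = 0.0208), at a mean level of 5.17 to 6.67 against 4.5 to 5.40 with vehicle. In vehicle males the lowest array means of the smooth muscle and mesenchymal (3.49), red cell (3.54) and endothelial (3.84) lists lay below the median of every array of that group, so their levels there are near the low end of the scale. The part of other cells in the members' difference was not tested.

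The same lists were counted in vehicle males, day 28 against days 3 and 90. Against 35.9% of all miRNAs called lower, 4 of 8 of the smooth muscle and mesenchymal list were, miR-143 (-4.79), miR-1 (-3.55), miR-152 (-2.83) and miR-499 (-1.68), with a median of -2.94 against -0.66 over all miRNAs. Of the epithelial list 1 of 12 was called lower, miR-183 (-2.67, adjusted p = 0.0321), with a median of -0.18. The red cell list had 2 of 2 called lower, the endothelial list 2 of 2 and the leukocyte list 3 of 4, with medians of -3.40, -2.99 and -2.43. miR-141 had been singled out for its lowest r with the members in these same data. It differed by 1.27 there (SE 0.57, limma adjusted p = 0.0527) and was not called, while the epithelial list had the median of -0.18.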

How the data were processed

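The authors deposited 1 table of log2 intensities for 301 miRNAs on 119 one-colour arrays. RMA and limma are named in the submitters' processing notes without versions or order, and the sources used here do not give the background correction, the probe summary or the filter. The deposited log2 values were used without further scaling. Arrays marked in the labels as failing quality control (3) were left out, and groups were taken from the labels.

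All 24 groups were fitted together with 1 mean each in limma 3.58.1 (R 4.3.3), with lmFit and eBayes (92 residual and 2.33 prior degrees of freedom). A total of 50 contrasts were tested two-sided with Benjamini-Hochberg adjustment over the 301 miRNAs within each contrast at a threshold of 0.05. The fit was tested on simulated data. Permutation tests used scipy 1.17.1 and numpy 2.4.6, and figures used matplotlib 3.10.9. Precision is limited by the number of arrays. No array was a copy of another (highest correlation 0.995).

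The members were found by name. Neighbours were the 5 miRNAs with the highest and 3 with the lowest Pearson correlation of deviations from group means, and list miRNAs were named where they passed the test or define the list. The members, lists and tests were chosen with earlier results of these data known. The alternatives kept failed arrays, centred or quantile-normalized arrays, added the array median as a covariate, tested only miRNAs above the median miRNA, fitted only the groups of a contrast, added a replicate block, or left out arrays. Leaving out arrays with a median under 4.5, and the test of the arm difference, were chosen after seeing the data. Replicate numbers come from the labels, and same-numbered arrays of different groups had a mean correlation of -0.00857 (range -0.821 to 0.873 over 1289 pairs), so the numbers were not taken to pair animals. Sequences and positions are those of RefSeq on GRCr8.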

Additional observations from a re-analysis of the deposited data

Results flagged for a closer look

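The effect of pioglitazone 63 on miR-214 at day 28 differed between males and females by 4.03 log2 units in the interaction test (adjusted p = 0.0452). The vehicle means (3.44 in males, 6.99 in females) lay farther apart than those with pioglitazone 63 (6.35 and 5.87). The call was kept in 8 of the 24 fits that left out arrays. It ended with the array median as a covariate (2.63, limma adjusted p = 0.071). An array left out for failing quality control, replicate 5 of the females given pioglitazone 16 for 28 days, had miR-199a-5p at 8.45, at an array median of 3.96. This was above the highest value of the vehicle females of that day, 7.05. Replicate 3 of its own group, which passed quality control, was higher still, at 9.54. Among 69 checks of a single array standing apart from its group of 4 or 5, 0 met the criterion, which about 1 in 20 would meet by chance. Groups this small give such a check little power, so 0 is not read as a lack of influential arrays.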

How the results depend on the processing

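With the failed arrays kept, or with only the miRNAs above the median miRNA tested, no call of a member ended. With the array median as a covariate 7 of the 8 calls ended. In pioglitazone 63 minus vehicle, males, day 28, the values were 1.87 for miR-199a-3p (adjusted p = 0.129) and 1.75 for miR-214 (adjusted p = 0.0869), which left 0 calls of each among the 18 comparisons with vehicle. In vehicle males at day 28 they were -1.78 and -1.44 against days 3 and 90, and -1.51 and -1.64 against vehicle females, with 0 calls of either member between the sexes and 0 of miR-199a-3p among the comparisons of days. The sex difference of miR-214 under pioglitazone 63 was 2.63 (adjusted p = 0.071), with 0 calls.

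Without arrays of median under 4.5, chosen after seeing the data, all 8 calls ended. The values were 2.13 and 2.29 for pioglitazone 63 males at day 28, -2.97 and -2.83 for vehicle males at day 28 against the other days, -2.13 and -2.66 for vehicle males against females (miR-199a-3p and miR-214 in each), 2.75 for the sex difference of miR-214, and -1.78 for miR-199a-5p in rosiglitazone 10 females, with 0 calls left. In their place 2 calls appeared at day 28 against days 3 and 90, miR-199a-5p in vehicle males (-4.06, adjusted p = 0.0189) and miR-214 in pioglitazone 16 males (-3.09, adjusted p = 0.00524). Only 1 vehicle male of day 28 was left, assumed to vary like the other groups, so a call lost or made against it says nothing of stability. The differences of miR-199a-5p in males at day 28 turned to 2.80 (pioglitazone 16), 2.82 (pioglitazone 63) and 3.78 (rosiglitazone 10), its sex difference to 2.66, and that of vehicle males from females to -2.77. Small differences also turned: miR-214 with pioglitazone 16 in males at day 28 to -0.39, the means of 6 to 0.28 (miR-199a-5p, pioglitazone 16), -0.12 and 0.0019 (miR-199a-3p and miR-214, pioglitazone 63), 0.14 and 0.27 (miR-199a-5p and miR-214, rosiglitazone 10), the dose difference of miR-199a-5p to -0.033, and miR-199a-3p at day 28 in pioglitazone 63 males to -0.28.

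Under the other scalings, centring gave -0.25 and the covariate -0.89 for miR-214 with pioglitazone 16 in males at day 28, and 0.082 and 0.32 for miR-214 at day 28 in pioglitazone 63 males, where quantile normalization gave -0.028 for miR-199a-3p. In rosiglitazone 10 males at day 28 the covariate gave -0.10 for miR-199a-3p, and quantile normalization gave 0.019 for miR-199a-5p. The mean of 6 of miR-199a-5p for pioglitazone 63 was -0.029 with failed arrays kept, -0.0092 centred, -0.081 quantile normalized and -0.0083 with the covariate. In rosiglitazone 10 females at day 28 centring ended the call of miR-199a-5p (-2.19, adjusted p = 0.0728), leaving 0 calls of it, and quantile normalization made a call of miR-214 (-2.55, adjusted p = 0.0466). In pioglitazone 16 males miR-214 at day 28 against the other days was called with centring (-2.23, adjusted p = 0.0384) and with the covariate (-1.93, adjusted p = 0.0281). Centring and quantile normalization thus each gave 2 calls of miR-214 among the comparisons of days. With only the groups of a contrast fitted, miR-199a-3p in pioglitazone 63 males at day 28 (3.20, adjusted p = 0.0571) and miR-199a-5p in rosiglitazone 10 females (-2.57, adjusted p = 0.0886) lost their calls, leaving 0 of each, and the sex difference of miR-199a-3p gained 1 (3.42, adjusted p = 0.0353). The cause of these changes was not tested.

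With the replicate number as a block, miR-199a-3p in pioglitazone 63 males at day 28 was 3.12 (adjusted p = 0.0598) and the sex difference of miR-214 was 3.99 (adjusted p = 0.0537), leaving 0 calls of each, and the block changed no other call of a member. Same-numbered arrays had a mean correlation of -0.00857, so the numbers may not pair animals.

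Leaving out 1 array or 1 replicate number gave these ranges. In males at day 28 they were -1.50 to 0.058 (miR-199a-5p) and -0.084 to 0.81 (miR-214) for pioglitazone 16, 2.63 to 3.86 (miR-199a-3p), -1.39 to 0.44 (miR-199a-5p) and 2.35 to 3.66 (miR-214) for pioglitazone 63, and -0.60 to 1.61 (miR-199a-3p) for rosiglitazone 10. The means of 6 ran from -0.60 to 0.22 (miR-199a-3p, pioglitazone 16), from -0.17 to 0.62, -0.28 to 0.26 and -0.33 to 0.39 (miR-199a-3p, miR-199a-5p and miR-214, pioglitazone 63) and from -0.57 to 0.51 (miR-214, rosiglitazone 10), and the dose difference of miR-199a-3p from -0.16 to 0.43. The day-28 contrasts ran from -0.59 to 0.70 (miR-199a-3p) and -0.92 to 0.63 (miR-214) in pioglitazone 63 males and from -3.03 to -2.22 (miR-199a-5p) and -3.03 to -2.08 (miR-214) in rosiglitazone 10 females, and from -2.88 to -2.07 (miR-214) in pioglitazone 16 males. The sex differences under pioglitazone 63 ran from -1.26 to 0.48 (miR-199a-5p) and 3.35 to 4.78 (miR-214), and vehicle males minus females from -4.35 to -2.99 (miR-199a-3p) and -0.42 to 1.24 (miR-199a-5p). Uncalled differences that moved widely were 0.74 to 3.22 (miR-199a-3p, pioglitazone 16 males at day 28), -1.17 to -0.011 (miR-199a-3p, mean of 6, rosiglitazone 10), and -4.37 to -2.13 and -3.59 to -1.42 (miR-199a-3p and miR-214, day 90 minus day 3, pioglitazone 63 males). The arm difference in males at day 28 ran from 1.78 to 3.95 for pioglitazone 16 and from 2.91 to 5.08 for pioglitazone 63, each highest without vehicle replicate 1. Without the arrays of low median it was -1.48 (pioglitazone 16), -0.69 (pioglitazone 63) and -1.33 (rosiglitazone 10) against the 1 vehicle male left.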
